A study of Mus musculus with 10 samples.

Results

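The 32 chemokine genes described here code for secreted or membrane-bound proteins that attract white blood cells, and were followed in the prostates of 10 male TRAMP mice. They were chosen by name: a gene counted where the symbol in the platform annotation equalled one of 32 chemokine symbols, with no minimum level, and all 32 were found among 19938 named genes. Of these, 30 had 1 probe set, and Ccl19 and Ccl25, with several, were read from the one of highest mean over the 10 arrays. The 5 nicotine mice had nicotine tartrate in their tap water at 250 µg/ml, begun at an age of 8 to 9 weeks. The 5 water mice, with the same age at the start, had tap water alone. All 10 mice were TRAMP animals, a line that carries a viral oncogene under a promoter of the prostate epithelium and develops prostate tumours, so the transgene is common to both groups. The sources used here give neither the strain background nor the age at tissue collection. RNA of the whole prostate was measured on 1 single-colour Affymetrix whole-transcript array per mouse, and all levels below are log2 values as deposited, on which 1 unit is a 2-fold difference. The series is entitled as part of a study of inflammation in prostate tumours of smokers, and the comparison asks what nicotine alone does in this model.

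Chemokines are small proteins released by epithelium, stroma and immune cells, and leukocytes move towards their source through receptors that couple to G proteins. The CXC, CC, CX3C and XC families are named for the spacing of conserved cysteines. In inflamed tissue, macrophages, fibroblasts and epithelial cells switch on the ligands for neutrophils, monocytes and T cells through NF-kappa B and interferon signalling, whereas ligands such as Cxcl12 are made constantly by stroma.

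The arrays of nicotine mice 1 and 3 differed from the rest in much more than chemokines. Chga, a granule protein of neuroendocrine cells, was at 11.7, 7.35, 11.3, 7.52 and 7.37 in nicotine mice 1 to 5, against 7.28, 7.73, 7.24, 7.27 and 7.07 in water mice 1 to 5. Correlated with each of the remaining arrays over all genes, nicotine mouse 1 had a median of 0.945 and nicotine mouse 3 of 0.838, whereas the other 8 mice had medians of 0.992 to 0.994. Markers of the luminal epithelium, the secretory cells of the gland, averaged 11.09 in nicotine mouse 1 and 6.73 in nicotine mouse 3, against 11.72 to 12.06 in the other nicotine mice and 11.79 to 12.14 in water mice. Skeletal muscle markers averaged 10.36 in nicotine mouse 1, against at most 7.52 in the others. Every comparison is therefore given over all 10 mice and again over the 8 mice without nicotine mice 1 and 3. The 8 are 3 nicotine and 5 water mice, and both comparisons share the same water mice. Seminal vesicle markers differed widely among these 8 as well. They averaged 6.86, 7.96, 5.92, 8.54 and 12.5 in nicotine mice 1 to 5. In water mice 1 to 5 they averaged 7.21, 7.31, 12.1, 13.2 and 12.9. In whole tissue, fewer cells of a type and less RNA per cell cannot be told apart.

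Over all 10 mice, 26 of the 32 chemokine genes had a lower mean in nicotine than in water mice, 81.2% against 47.3% of all genes. The median difference, nicotine minus water, was -0.14 for the chemokine genes and 0.01 for all genes. Without nicotine mice 1 and 3, 15 of 32 were lower, 46.9% against 45.4% of all genes, and the median difference was 0.02, against 0.01 for all genes. By limma, 0 of 32 passed an adjusted p of 0.05 in either comparison, nor did any of the 19938 genes tested (0% called in each). At an unadjusted p below 0.05, 4 of 32 were called over 10 mice, 2 higher (3.93% of all genes) and 2 lower (5.31% of all genes), beside 9.24% of all genes in both directions. Over 8 mice, 5 of 32 were called, 4 higher (5.21% of all genes) and 1 lower (7.22% of all genes), beside 12.4% in both directions. The counts in both directions together are near the background, and no single chemokine gene is called as changed. Groups that did not overlap were found for 0 of 32 chemokine genes over 10 mice, beside 3.95% of all genes (1.63% higher and 2.33% lower), and for 0 of 32 over 8 mice, beside 8.71% of all genes (3.52% higher and 5.19% lower).

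The spread between nicotine mice was wide. The median SD of the chemokine genes was 0.452 in nicotine mice and 0.145 in water mice, against 0.196 and 0.0939 over all genes. Nicotine mouse 3 had the lowest value of the 10 mice in 21 of 32 chemokine genes, 65.6% against 30.2% of all genes. It lay below the whole water range in 24 of 32, where 36.8% of all genes did. Nicotine mouse 1 lay below the water range in 20 of 32, where 34.2% of all genes did. Nicotine mouse 2 lay above the water range in 9 of 32, where 23.9% of all genes did, and had the highest value of the 10 mice in 9 of 32, 28.1% against 10.8% of all genes. Nicotine mouse 5 lay above the water range in 8 of 32, where 16.6% of all genes did, and nicotine mouse 4 in 2 of 32, where 14.1% of all genes did. Below the water range, nicotine mouse 4 lay in 6 of 32 (18.1% of all genes), mouse 2 in 2 (18.4%) and mouse 5 in 3 (17.9%). Nicotine mice 1 and 3 lay above it in 1 of 32 each, where 30.1% and 34.9% of all genes did. Whether the cell makeup of nicotine mice 1 and 3 set their low values was not tested.

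**Figure D1:**
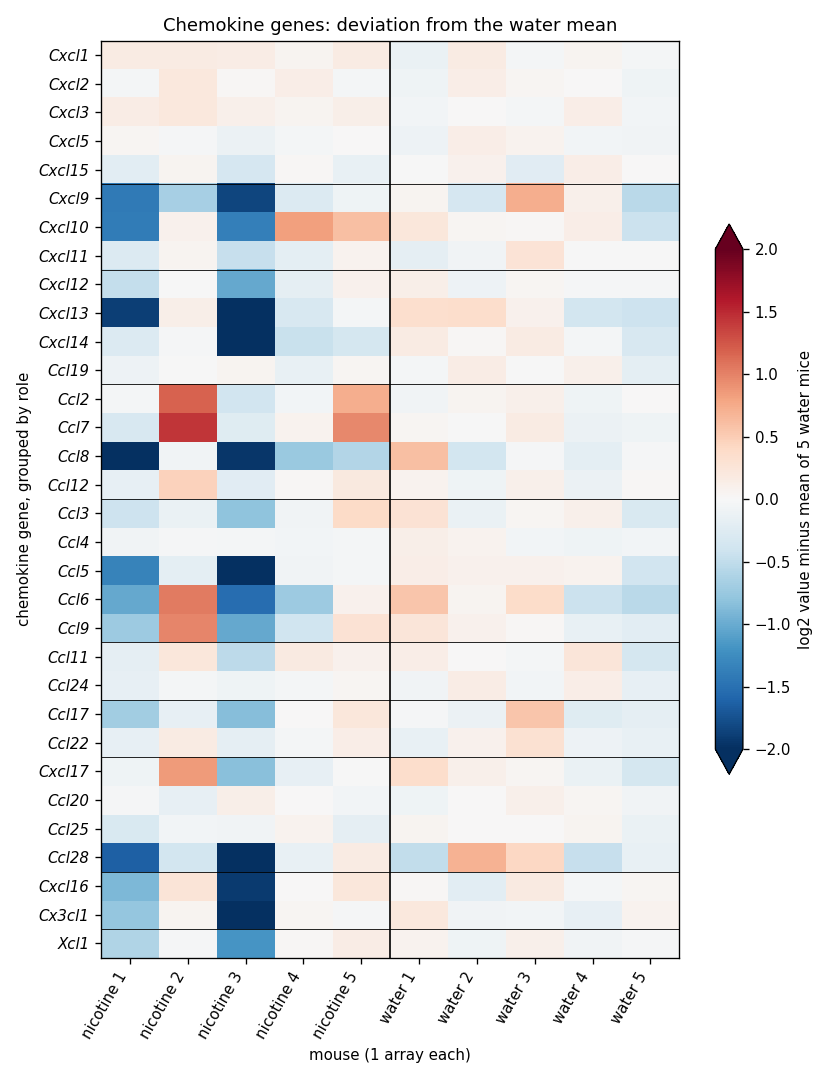
Log2 value of each of the 32 chemokine genes (rows) in each mouse (columns, nicotine left, water right), minus the mean of the 5 water mice. Nicotine mice 1 and 3 are below the water mean for most genes, with median deviations of -0.29 and -0.67, whereas nicotine mouse 2 is at 0.05, nicotine mouse 4 at -0.04 and nicotine mouse 5 at 0.08.

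The monocyte chemoattractants were the group with the largest differences in opposite directions. Ccl2, Ccl7 and Ccl12 code for ligands of CCR2, which draws monocytes out of the blood, and Ccl8 codes for a close relative whose mouse product is known as a ligand of CCR8. Ccl7 was at 6.77, 8.52, 6.85, 7.17 and 8.05 in nicotine mice 1 to 5, against 7.14, 7.09, 7.27, 6.98 and 7.001 in water mice 1 to 5. Nicotine mice 2 and 5 were above all water mice and nicotine mice 1 and 3 below them. Over 8 mice Ccl7 averaged 7.92 ± 0.69 in nicotine mice (SD, n = 3) and 7.09 ± 0.12 in water mice (SD, n = 5), a difference of 0.82 ± 0.23 (SE) or 1.77-fold. This was the smallest adjusted p among the chemokine genes, 0.186 by limma, and the exact two-sided permutation test gave an unadjusted p of 0.0357, where 0.0179 is the smallest that 3 against 5 mice allow. Without nicotine mouse 2 as well, the difference was 0.52, and without nicotine mouse 4 it was 1.19. Over all 10 mice it was 0.38 ± 0.32 (SE), with an adjusted p of 0.573 by limma. The permutation test over 10 mice gave an unadjusted p of 0.405.

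Ccl2 followed the same mice. It was at 7.31, 8.53, 6.97, 7.29 and 8.07 in nicotine mice 1 to 5, against 7.27, 7.41, 7.45, 7.26 and 7.35 in water mice 1 to 5. Nicotine mice 2 and 5 were again above all water mice, and nicotine mouse 4 was inside the water range. The difference was 0.61 ± 0.21 (SE) over 8 mice, 1.53-fold, with an adjusted p of 0.256 by limma, and 0.29 ± 0.27 (SE) over 10 mice, with an adjusted p of 0.597. The 8-mouse difference was 0.33 without nicotine mouse 2 and 0.95 without nicotine mouse 4, and the 10-mouse difference was 0.0635 without nicotine mouse 2. Ccl12, on a probe set near the lower end of the scale, was at 5.60, 6.22, 5.54, 5.78 and 5.96 in nicotine mice 1 to 5, against 5.84, 5.68, 5.86, 5.63 and 5.78 in water mice 1 to 5. Its difference was 0.23 ± 0.10 (SE) over 8 mice, with an adjusted p of 0.367, and 0.06 ± 0.13 (SE) over 10 mice, with an adjusted p of 0.823, both by limma. Without nicotine mouse 2 the 8-mouse difference of Ccl12 was 0.11.

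Ccl8 differed the other way. It was at 6.44, 8.41, 6.53, 7.73 and 7.89 in nicotine mice 1 to 5, against 9.08, 8.10, 8.45, 8.29 and 8.45 in water mice 1 to 5. All nicotine mice but number 2 were below the lowest water mouse. Ccl8 averaged 7.40 ± 0.87 in nicotine mice and 8.47 ± 0.37 in water mice (SD, n = 5 each), a difference of -1.08 ± 0.39 (SE), or 2.11-fold lower, with an adjusted p of 0.514 by limma. It had the largest difference among the 32 chemokine genes over 10 mice, and the exact two-sided permutation test gave an unadjusted p of 0.0238, where 0.00794 is the smallest that 5 against 5 mice allow. Over 8 mice the difference was -0.47 ± 0.21 (SE), with an adjusted p of 0.398 by limma. The permutation test over 8 mice gave an unadjusted p of 0.161.

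Ccl12 and Ccl8 are neighbours on chromosome 11, and their upstream windows are shown. Whether letters in these windows bear on the level of either gene was not tested. The 250 bases before each start in RefSeq (GRCm38.p6, plus strand) are at chr11:82101595-82101844 for Ccl12 and chr11:82114935-82115184 for Ccl8. Capitals mark TATAAA, the letters of a TATA box, which ends 26 bases before the start in Ccl12 and 27 in Ccl8, and which 12.4% of 32851 windows of this length held on either strand.
Ccl12: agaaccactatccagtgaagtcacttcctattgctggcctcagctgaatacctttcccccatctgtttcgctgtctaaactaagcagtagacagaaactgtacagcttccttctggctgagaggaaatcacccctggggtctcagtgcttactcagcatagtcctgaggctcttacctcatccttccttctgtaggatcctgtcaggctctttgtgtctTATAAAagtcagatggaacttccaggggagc
Ccl8: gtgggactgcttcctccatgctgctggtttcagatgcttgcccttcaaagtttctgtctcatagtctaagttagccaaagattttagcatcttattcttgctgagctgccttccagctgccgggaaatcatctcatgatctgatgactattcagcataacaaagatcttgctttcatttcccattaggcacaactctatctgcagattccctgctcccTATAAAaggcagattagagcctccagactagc
Neither window held the letters searched for NF-kappa B (GGG, any 3 bases, then TTCC) or for the interferon elements ISRE (GAAA, any 2 bases, then GAAA) and GAS (TTCNNNGAA, with N any base) on either strand, which says nothing of binding elsewhere.

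Among the interferon-induced CXCR3 ligands, Cxcl9 and Cxcl10 had differences of opposite sign once nicotine mice 1 and 3 were left out, neither past the adjusted threshold. Cxcl9, Cxcl10 and Cxcl11 code for proteins that attract activated T cells and NK cells through CXCR3. Cxcl9 was at 7.24, 8.00, 6.82, 8.38 and 8.57 in nicotine mice 1 to 5, against 8.71, 8.32, 9.38, 8.76 and 8.11 in water mice 1 to 5. Nicotine mice 1, 2 and 3 were below all water mice, and nicotine mice 4 and 5 were inside the water range. Cxcl9 averaged 7.80 ± 0.75 in nicotine mice and 8.66 ± 0.49 in water mice (SD, n = 5 each), a difference of -0.86 ± 0.37 (SE), with an adjusted p of 0.514 by limma. Over 8 mice the difference was -0.34 ± 0.24 (SE), with an adjusted p of 0.636. It was -0.16 without water mouse 3 and -0.18 without nicotine mouse 2.

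Cxcl10 was at 6.99, 8.47, 7.01, 9.21 and 8.98 in nicotine mice 1 to 5, against 8.62, 8.42, 8.42, 8.52 and 7.95 in water mice 1 to 5. Nicotine mice 4 and 5 were above all water mice, and nicotine mice 1 and 3 were below them. Over 10 mice the difference was -0.25 ± 0.45 (SE), with an adjusted p of 0.787 by limma. Over 8 mice Cxcl10 averaged 8.89 ± 0.38 in nicotine mice (SD, n = 3) and 8.39 ± 0.26 in water mice (SD, n = 5), a difference of 0.50 ± 0.17 (SE) or 1.42-fold, with an adjusted p of 0.269 by limma. Cxcl11 ranged from 6.22 to 6.75 in nicotine mice and from 6.51 to 6.95 in water mice, and the groups overlapped.

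Cxcl9 and Cxcl10 lie near each other on the minus strand of chromosome 5. Their upstream windows are shown because both are textbook interferon targets. Whether letters in these windows bear on the level of either gene was not tested. The 250 bases before each RefSeq start (GRCm38.p6, minus strand) are at chr5:92328080-92328329 for Cxcl9 and chr5:92348890-92349139 for Cxcl10. Capitals mark TATAAA in Cxcl9, where it ended 190 bases before the start, much further upstream than in Ccl12 and Ccl8. In Cxcl10 capitals mark 1 match to the ISRE letters, the interferon-stimulated response element, and a pair of matches to the NF-kappa B letters.
Cxcl9: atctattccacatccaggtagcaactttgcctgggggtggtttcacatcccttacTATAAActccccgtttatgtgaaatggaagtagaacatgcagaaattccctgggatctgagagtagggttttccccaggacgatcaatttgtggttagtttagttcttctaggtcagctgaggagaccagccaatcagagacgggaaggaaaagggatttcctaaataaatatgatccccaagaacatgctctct
Cxcl10: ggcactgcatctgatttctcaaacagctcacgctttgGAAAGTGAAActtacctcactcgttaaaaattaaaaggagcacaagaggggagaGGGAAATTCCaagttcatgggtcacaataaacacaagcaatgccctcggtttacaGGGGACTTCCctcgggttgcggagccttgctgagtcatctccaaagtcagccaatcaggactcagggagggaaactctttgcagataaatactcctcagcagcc
The ISRE match in Cxcl10 began 213 bases before the start, and the NF-kappa B matches began 159 and 104 bases before it. Of all 32851 windows, 2.98% held the ISRE letters, 4.65% the NF-kappa B letters and 7.02% the GAS letters on either strand. Among the 22 chemokine genes with a window, 3 held the ISRE letters, 6 the NF-kappa B letters and 2 the GAS letters.

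The neutrophil attractants showed small differences. Cxcl1, Cxcl2, Cxcl3 and Cxcl5 code for ligands of CXCR2, the main chemokine receptor of neutrophils, and Cxcl15 codes for lungkine, a neutrophil attractant of mouse epithelia. Cxcl1 was at 7.46, 7.46, 7.45, 7.35 and 7.46 in nicotine mice 1 to 5, against 7.17, 7.47, 7.26, 7.35 and 7.26 in water mice 1 to 5. Nicotine mice 1, 2, 3 and 5 were close together, near the highest water mouse. The difference was 0.14 ± 0.06 (SE), 1.10-fold, over 10 mice, with an adjusted p of 0.514, and 0.12 ± 0.07 (SE) over 8 mice, with an adjusted p of 0.519, both by limma.

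Cxcl3 was at 6.15, 6.20, 6.10, 6.04 and 6.11 in nicotine mice 1 to 5, against 5.93, 5.995, 5.96, 6.13 and 5.94 in water mice 1 to 5. The difference was 0.13 ± 0.05 (SE), 1.09-fold, over 10 mice, with an adjusted p of 0.514, and 0.13 ± 0.06 (SE) over 8 mice, with an adjusted p of 0.439, both by limma. Water mouse 4, at 6.13, was the one water mouse inside the nicotine range. Without nicotine mice 1 and 3, the differences of Cxcl1 and Cxcl3 thus kept their sign and most of their size. Cxcl2 ranged from 5.59 to 5.85 in nicotine mice and from 5.54 to 5.77 in water mice. Cxcl5 ranged from 5.50 to 5.65 in nicotine mice and from 5.52 to 5.75 in water mice, and Cxcl15 from 4.90 to 5.28 and from 5.01 to 5.37 in the same order. Cxcl2, Cxcl3, Cxcl5, Cxcl15 and Ccl12 were the 5 chemokine genes below 6.55, the level under which the lowest 25% of all genes lay. Neutrophil markers averaged 5.72 to 5.85 in nicotine mice and 5.70 to 5.84 in water mice.

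The windows just before Cxcl1, Cxcl2 and Cxcl3 are shown because these neighbours on chromosome 5 carry the same NF-kappa B letters. The 120 bases before each RefSeq start (GRCm38.p6, plus strand) are at chr5:90891125-90891244 for Cxcl1, chr5:90903779-90903898 for Cxcl2 and chr5:90785981-90786100 for Cxcl3. Capitals mark matches to the NF-kappa B letters on either strand, overlapping matches being joined, and in Cxcl3 also TATAAA.
Cxcl1: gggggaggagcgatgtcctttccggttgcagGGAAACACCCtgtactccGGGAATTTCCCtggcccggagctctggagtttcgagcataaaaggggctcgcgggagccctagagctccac
Cxcl2: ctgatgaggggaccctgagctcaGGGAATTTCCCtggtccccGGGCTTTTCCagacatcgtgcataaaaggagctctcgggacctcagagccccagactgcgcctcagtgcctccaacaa
Cxcl3: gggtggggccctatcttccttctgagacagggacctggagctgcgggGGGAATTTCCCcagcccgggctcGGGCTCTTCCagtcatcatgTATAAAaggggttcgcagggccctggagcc
The joined match read GGGAATTTCCC in each of the 3 windows. Its first base lay 71 bases before the start in Cxcl1, 97 in Cxcl2 and 73 in Cxcl3.

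**Figure D2:**
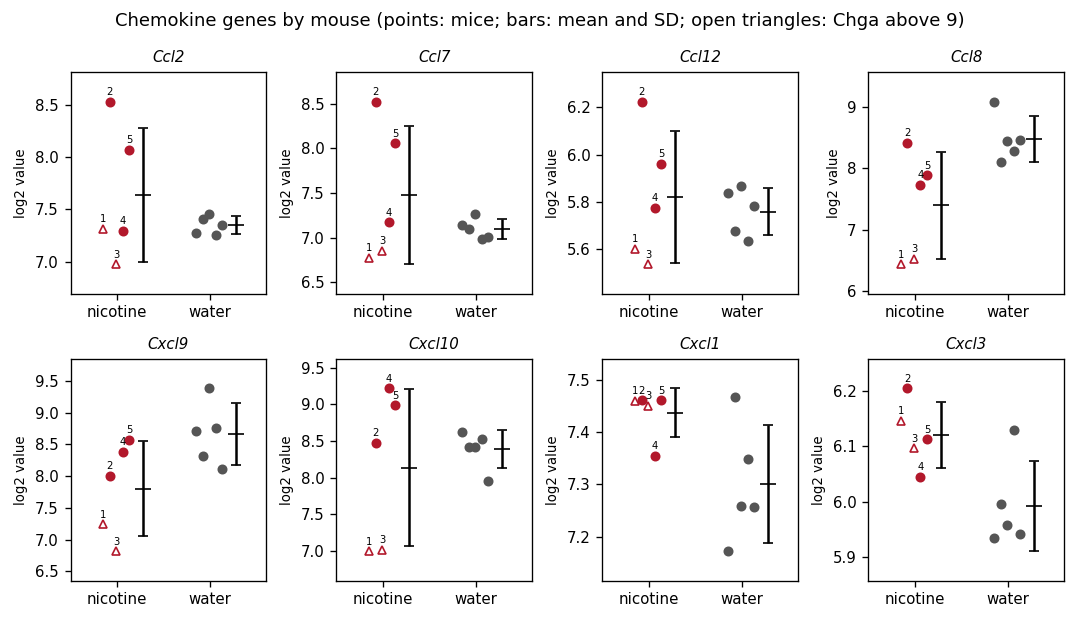
Log2 value by mouse for 8 monocyte, CXCR3 and neutrophil chemokine genes, 1 panel each, with nicotine mice left (red, numbered, open triangles for mice 1 and 3 with Chga above 9) and water mice right (grey), and bars for the mean and SD of all 5. Ccl2 and Ccl7 are highest in nicotine mice 2 and 5, Cxcl10 in nicotine mice 4 and 5, and Ccl8 is below every water mouse in 4 of 5 nicotine mice.

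A further group of inflammatory CC chemokines, Ccl3, Ccl4, Ccl5, Ccl6 and Ccl9, included both low values in nicotine mice 1 and 3 and high values in nicotine mouse 2. Ccl5, made by T cells and NK cells among others, was at 8.96, 10.10, 7.80, 10.21 and 10.25 in nicotine mice 1 to 5, against 10.42, 10.38, 10.37, 10.36 and 9.91 in water mice 1 to 5. The other 3 nicotine mice were inside the water range. The difference was -0.83 ± 0.45 (SE) over 10 mice, with an adjusted p of 0.514, and -0.10 ± 0.11 (SE) over 8 mice, with an adjusted p of 0.759, both by limma. NK cell markers averaged 5.99 to 6.65 in nicotine mice and 6.52 to 6.80 in water mice, and T cell markers 6.55 to 6.76 and 6.64 to 6.98 in the same order. Their part in the Ccl5 values was not tested.

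Ccl6 and Ccl9, chemokines of mouse myeloid cells, were both highest in nicotine mouse 2. Ccl6 was at 8.37, 10.44, 7.88, 8.68 and 9.49 in nicotine mice 1 to 5, against 9.95, 9.46, 9.77, 8.97 and 8.86 in water mice 1 to 5. Ccl9 was at 7.57, 9.27, 7.26, 7.90 and 8.59 in nicotine mice 1 to 5, against 8.54, 8.37, 8.32, 8.13 and 8.08 in water mice 1 to 5. For Ccl9, nicotine mice 2 and 5 were above all water mice and nicotine mice 1, 3 and 4 below them. Ccl3, an inflammatory product of macrophages, ranged from 7.08 to 8.27 in nicotine mice and from 7.58 to 8.19 in water mice. Ccl4, its close relative, stayed between 6.66 and 6.71 in nicotine mice and between 6.65 and 6.84 in water mice.

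Stromal and lymphoid chemokines had some of the lowest values in nicotine mice 1 and 3, relative to water. Cxcl13, which attracts B cells through CXCR5, was at 7.63, 9.64, 6.64, 9.19 and 9.47 in nicotine mice 1 to 5, against 9.85, 9.86, 9.60, 9.15 and 9.09 in water mice 1 to 5. Its difference was -1.0015 ± 0.56 (SE) over 10 mice, with an adjusted p of 0.514, and -0.08 ± 0.19 (SE) over 8 mice, with an adjusted p of 0.905, both by limma. Nicotine mice 2, 4 and 5 were inside the water range. Cxcl12, the ligand of CXCR4 made by stroma, was at 7.59, 8.05, 7.05, 7.89 and 8.15 in nicotine mice 1 to 5, against 8.19, 7.96, 8.10, 8.05 and 8.04 in water mice 1 to 5. Its difference was -0.32 ± 0.19 (SE) over 10 mice, with an adjusted p of 0.514, and -0.04 ± 0.07 (SE) over 8 mice, with an adjusted p of 0.891, both by limma.

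Cxcl14, a chemokine of epithelium and fibroblasts, was at 9.80, 10.06, 7.31, 9.64 and 9.73 in nicotine mice 1 to 5, against 10.24, 10.10, 10.24, 10.04 and 9.77 in water mice 1 to 5. Nicotine mice 3, 4 and 5 were below all water mice, and nicotine mice 1 and 2 were inside their range. The difference was -0.77 ± 0.47 (SE) over 10 mice, with an adjusted p of 0.517, and -0.27 ± 0.12 (SE) over 8 mice, with an adjusted p of 0.403, both by limma. Ccl19, a CCR7 ligand of lymphoid stroma, ranged from 7.14 to 7.34 in nicotine mice and from 7.09 to 7.45 in water mice. The 8 fibroblast markers averaged 8.63 to 9.49 in nicotine mice, against 9.72 to 10.09 in water mice, and by limma 0 of 8 passed the adjusted threshold in either comparison. At an unadjusted p below 0.05, 0 were higher and 5 lower over 10 mice (5.31% of all genes were lower), with a median difference of -0.61. Over 8 mice 0 were higher and 8 lower (7.22% of all genes were lower), with a median difference of -0.56. Whether this moved Cxcl12 and Cxcl14 was not tested.

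Among the mucosal chemokines, Ccl28 and Cxcl17 varied most between mice. Ccl28, an epithelial ligand of CCR10, was at 7.91, 9.18, 7.08, 9.39 and 9.72 in nicotine mice 1 to 5, against 9.05, 10.24, 9.97, 9.09 and 9.40 in water mice 1 to 5. The difference was -0.89 ± 0.51 (SE) over 10 mice, with an adjusted p of 0.514, and -0.12 ± 0.26 (SE) over 8 mice, with an adjusted p of 0.902, both by limma. Nicotine mice 1 and 3 were below all water mice and the other 3 inside their range. Ccl25, best known from thymus and gut as the ligand of CCR9, was at 7.77, 8.03, 8.00, 8.15 and 7.90 in nicotine mice 1 to 5, against 8.13, 8.09, 8.08, 8.14 and 7.94 in water mice 1 to 5. The difference was -0.10 ± 0.08 (SE) over 10 mice, with an adjusted p of 0.535, and -0.05 ± 0.07 (SE) over 8 mice, with an adjusted p of 0.832, both by limma. Cxcl17, a chemokine of mucosal surfaces, was at 8.08, 9.02, 7.33, 7.99 and 8.16 in nicotine mice 1 to 5, against 8.51, 8.26, 8.20, 8.03 and 7.81 in water mice 1 to 5. Nicotine mouse 2 was the highest of all mice. Ccl20, the ligand of CCR6, ranged from 6.52 to 6.80 in nicotine mice and from 6.61 to 6.80 in water mice.

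The membrane-anchored chemokines and Xcl1 were low in nicotine mice 1 and 3 and close to water in the rest. Cx3cl1, or fractalkine, which tethers cells that carry CX3CR1, was at 9.02, 9.85, 7.69, 9.83 and 9.78 in nicotine mice 1 to 5, against 10.02, 9.73, 9.74, 9.64 and 9.88 in water mice 1 to 5. Its difference was -0.56 ± 0.39 (SE) over 10 mice, with an adjusted p of 0.528, and 0.02 ± 0.08 (SE) over 8 mice, with an adjusted p of 0.949, both by limma. Cxcl16, the ligand of CXCR6, was at 8.00, 9.16, 6.99, 8.92 and 9.14 in nicotine mice 1 to 5 and between 8.70 and 9.09 in water mice. Nicotine mice 2 and 5 were thus above all water mice. Xcl1, made by NK and T cells for dendritic cells that carry XCR1, was at 6.82, 7.40, 6.23, 7.44 and 7.56 in nicotine mice 1 to 5, against 7.49, 7.33, 7.52, 7.35 and 7.40 in water mice 1 to 5. Its difference was -0.33 ± 0.23 (SE) over 10 mice, with an adjusted p of 0.533, and 0.05 ± 0.06 (SE) over 8 mice, with an adjusted p of 0.817, both by limma.

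The eosinophil and CCR4 ligands overlapped between the groups. Ccl11, or eotaxin, ranged from 7.77 to 8.51 in nicotine mice and from 7.94 to 8.53 in water mice. Ccl24, a further eotaxin, ranged from 6.46 to 6.66 and from 6.46 to 6.77 in the same order. Eosinophil markers averaged 6.07 to 6.15 in nicotine mice and 5.95 to 6.20 in water mice. Ccl17, which draws CCR4-bearing T cells, ranged from 7.09 to 8.17 in nicotine mice and from 7.71 to 8.51 in water mice. Ccl22, its companion ligand, ranged from 6.40 to 6.74 in nicotine mice and from 6.43 to 6.88 in water mice.

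**Figure D3:**
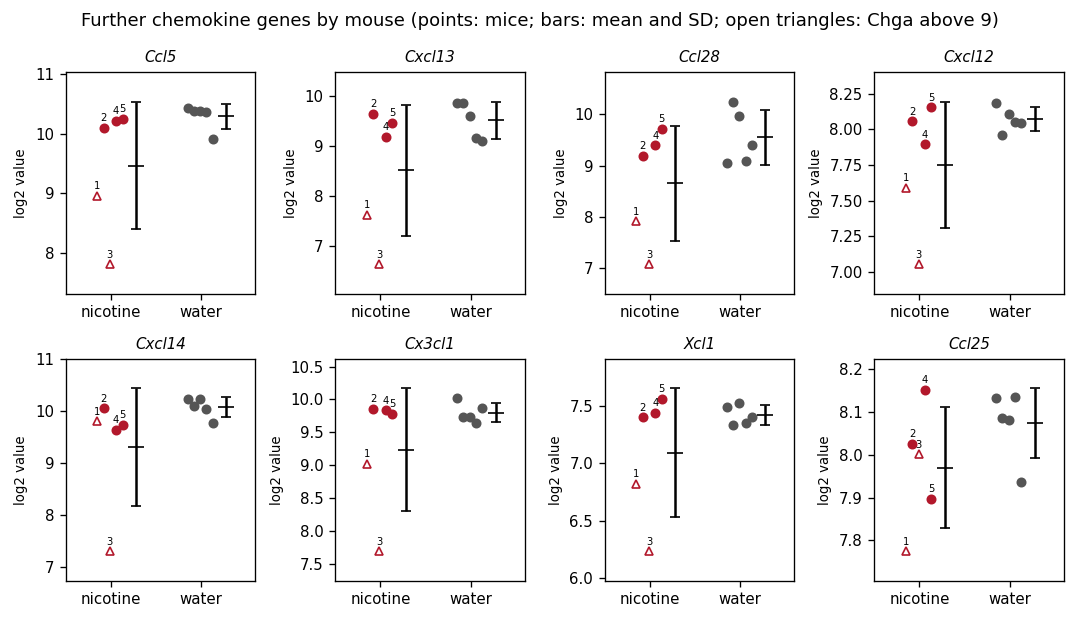
Log2 value by mouse for 8 further chemokine genes, drawn as nicotine mice left (red, numbered, open triangles for mice 1 and 3) and water mice right (grey), with the mean and SD of all 5. In Ccl5, Cxcl13, Ccl28, Cx3cl1 and Xcl1 nicotine mice 1 and 3 are below every water mouse and nicotine mice 2, 4 and 5 lie with the water mice or close to them.

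Setting the comparisons side by side, 7 of 32 chemokine genes were at least 0.5 lower in nicotine mice over 10 mice (6.07% of all genes) and 0 of 32 at least 0.5 higher (5.09% of all genes). Over 8 mice, 0 of 32 were at least 0.5 lower (0.426% of all genes) and 3 of 32 at least 0.5 higher (0.236% of all genes), namely Ccl2, Ccl7 and Cxcl10. The 7 genes were Ccl8, Cxcl13, Ccl28, Cxcl9, Ccl5, Cxcl14 and Cx3cl1. The smallest adjusted p of all genes was 0.514 over 10 mice and 0.0649 over 8 mice, both by limma.

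**Figure D4:**
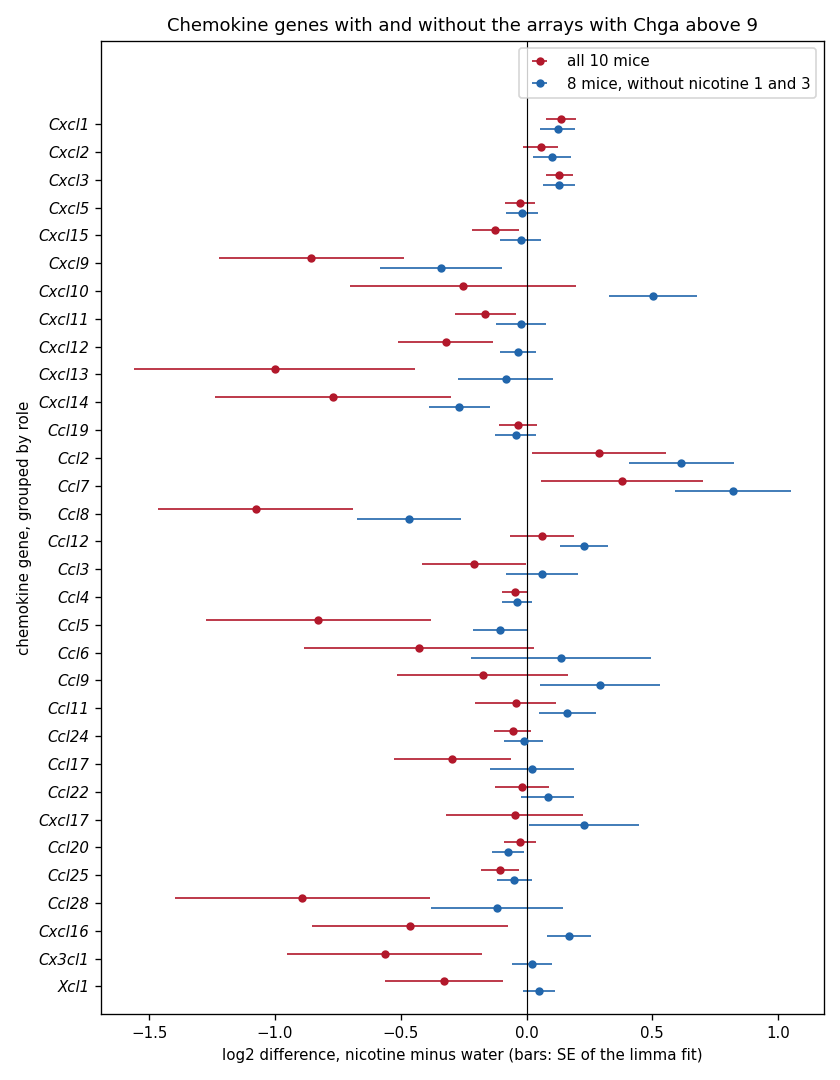
Log2 difference, nicotine minus water, for each of the 32 chemokine genes, with bars for the SE of the limma fit (red, all 10 mice; blue, the 8 mice without nicotine mice 1 and 3). The range was -1.08 to 0.38 over 10 mice and -0.47 to 0.82 over 8 mice, with Ccl8 lowest and Ccl7 highest in both.

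Of the chemokine receptor genes, 17 were analysed here. By limma 0 of 17 passed the adjusted threshold in either comparison. At an unadjusted p below 0.05, 0 were higher and 3 lower over 10 mice, where 3.93% of all genes were higher and 5.31% lower. Over 8 mice 1 was higher and 4 were lower, where 5.21% of all genes were higher and 7.22% lower. Ccr2, the receptor of Ccl2, Ccl7 and Ccl12 on monocytes, was at 5.93, 7.20, 5.35, 6.63 and 6.72 in nicotine mice 1 to 5, against 8.40, 7.74, 8.25, 7.43 and 7.19 in water mice 1 to 5. All nicotine mice but number 2 were below the lowest water mouse. The difference was -1.43 ± 0.37 (SE), 2.70-fold lower, over 10 mice, with an adjusted p of 0.514, and -0.95 ± 0.26 (SE), 1.93-fold lower, over 8 mice, with an adjusted p of 0.176, both by limma. The exact two-sided permutation test gave unadjusted p-values of 0.0159 over 10 mice and 0.0536 over 8 mice. In nicotine mice 2 and 5, where its ligands Ccl2 and Ccl7 were high, Ccr2 was at 7.20 and 6.72, below its mean of 7.80 ± 0.52 in water mice (SD, n = 5). It was lower still in nicotine mice 1, 3 and 4, at 5.93, 5.35 and 6.63, so low Ccr2 was not particular to the mice with high ligands.

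The 10 macrophage and dendritic cell markers averaged 7.21 to 8.17 in nicotine mice and 8.01 to 8.60 in water mice, and by limma 0 of 10 passed the adjusted threshold in either comparison. At an unadjusted p below 0.05, 0 of the 10 were higher and 4 lower over 10 mice (5.31% of all genes were lower), and 0 higher and 6 lower over 8 mice (7.22% of all genes were lower). Whether fewer such cells set the Ccr2 and Ccl8 values was not tested.

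Cxcr6, the receptor of Cxcl16 on T and NK cells, was at 6.27, 6.61, 5.99, 6.66 and 6.74 in nicotine mice 1 to 5, against 6.94, 6.72, 7.12, 6.84 and 6.76 in water mice 1 to 5. Nicotine mice 1 to 4 were below all water mice, and nicotine mouse 5 was inside their range. Xcr1, the receptor of Xcl1, was at 6.54, 6.84, 6.88, 6.73 and 7.05 in nicotine mice 1 to 5, against 7.05, 6.97, 7.22, 7.19 and 6.96 in water mice 1 to 5. Again nicotine mice 1 to 4 were below all water mice. The differences over 10 mice were -0.42 ± 0.15 (SE) for Cxcr6 and -0.27 ± 0.10 (SE) for Xcr1, and over 8 mice -0.21 ± 0.09 (SE) for each. All had adjusted p-values of 0.364 or more by limma.

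**Figure D5:**
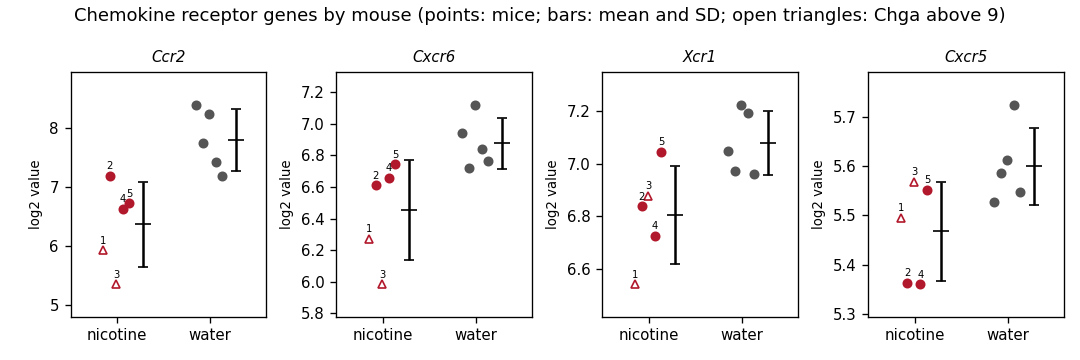
Log2 value by mouse for Ccr2, Cxcr6, Xcr1 and Cxcr5, with nicotine mice left (red, numbered, open triangles for mice 1 and 3) and water mice right (grey), and bars for the mean and SD of all 5. Ccr2 is below every water mouse in nicotine mice 1, 3, 4 and 5.

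Of 5 atypical receptors, which take up chemokines without signalling through G proteins, 0 had an unadjusted p below 0.05 in either comparison. Of 4 further chemokine ligands measured, 1 did in both, Ppbp, the platelet neutrophil attractant. Of all genes, 9.24% did over 10 mice and 12.4% over 8 mice. Ppbp lay below 6.55, the level under which the lowest 25% of all genes lay. It was at 5.50, 5.83, 5.48, 5.50 and 5.69 in nicotine mice 1 to 5, against 5.51, 5.34, 5.36, 5.54 and 5.27 in water mice 1 to 5. Its difference was 0.20 ± 0.09 (SE) over 10 mice, with an adjusted p of 0.514, and 0.27 ± 0.09 (SE) over 8 mice, with an adjusted p of 0.227, both by limma. Of 13 measured inducers of chemokine genes, such as inflammatory cytokines and the factors of NF-kappa B and interferon signalling, 0 were called over 10 mice at an unadjusted p below 0.05. Over 8 mice 3 were, all higher (5.21% of all genes were higher), namely Tnf, Rela and Irf1, which are named after their values were seen. Their differences were 0.31 ± 0.10 (SE) for Tnf, 0.17 ± 0.07 (SE) for Rela and 0.22 ± 0.09 (SE) for Irf1, with adjusted p-values of 0.248 or more by limma. Over 8 mice, 9 of the 13 inducers had a higher mean in nicotine mice and 4 a lower one. Ifnb1 had the smallest unadjusted p of the inducers over 10 mice. Its difference was -0.11 ± 0.05 (SE) over 10 mice and -0.12 ± 0.06 (SE) over 8 mice, neither past the adjusted threshold.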

How the data were processed

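Total RNA of whole prostates, 1 array per mouse, was extracted with Trizol and labelled with Affymetrix whole-transcript kits, per the labels' protocols. The authors deposited log2 values for 35556 probe sets (3.59 to 14.1, array medians 7.50 to 7.57); the log2 scale was read from this range, and the sources used here do not give their normalization. No scan dates were used, so batches could not be checked. The number of arrays limits the precision.

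Gene names came from the platform annotation and may be outdated: 21789 probe sets had 1 symbol, 1621 several and 12146 none. Per gene, the single-symbol probe set with the highest mean was kept, giving 19938 genes, of which 19856 matched RefSeq (GRCm38.p6). No filter on level was set. The groups were compared in R 4.3.3 with limma 3.58.1 (lmFit, eBayes, two-sided, Benjamini-Hochberg adjustment over all 19938 genes, threshold 0.05), over 10 mice and without the 2 arrays with Chga above 9. SDs are between mice and SEs are those of the fit. Exact permutation tests had 252 and 56 arrangements. The steps were tested on simulated data. Promoter letters were searched on both strands of RefSeq's 250 bases before each start.

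The members, the lists and the limit on Chga were chosen with earlier results of these data known. Full values are given for the 12 members with the smallest unadjusted p over 10 mice and the 6 over 8 mice. Up to 4 genes were named from each pathway list by the unadjusted p over 10 mice. Tnf, Rela and Irf1 were named outside this rule. Each group numbers its mice 1 to 5, with no label that ties equal numbers together. Other filters, probe set rules, normalizations, variance models, a replicate block, a seminal vesicle covariate and leaving out each mouse were tried.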

Additional observations from a re-analysis of the deposited data

Results flagged for a closer look

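Among 96 groups of 5 values, over the chemokine genes and the named genes of their pathway, 8 held a value far from the other 4 by Dixon's test at 95%; chance gives about 1 in 20. Cxcl14 was at 7.31 in nicotine mouse 3, against 9.64 to 10.06 in the other nicotine mice. Ackr1, an atypical receptor of venular endothelium and red cells, was at 8.01 in nicotine mouse 3, against 6.87 to 6.96 in the others. Cxcl1 was at 7.35 in nicotine mouse 4, against 7.45 to 7.46 in the others. Ccl5 was at 9.91 in water mouse 5, against 10.36 to 10.42 in the other water mice. Ccl25 was at 7.94 in water mouse 5, against 8.08 to 8.14. Ccl17 was at 8.51 in water mouse 3, against 7.71 to 7.93. In water mouse 2, Ccl1 was at 6.79, against 6.60 to 6.65, and Il4 at 6.90, against 6.74 to 6.78.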

How the results depend on the processing

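Over 10 mice, array weights, which give less weight to arrays far from the fit, called 469 genes (152 higher and 317 lower), where the reported fit and every other alternative run called 0; the count at an unadjusted p below 0.05 ran from 811 to 3803, beside 1842. Over 8 mice, where the reported fit called 0, quantile normalization again called 16 genes, eBayes with a trend and robust settings 22, weighting of arrays 739, the seminal vesicle covariate 2, and leaving out 1 mouse between 0 and 82, the most without water mouse 5. Over 8 mice, array weights called 1 chemokine gene, Ccl7 (0.86, adjusted p = 0.0373 by limma). With array weights Ccr2 passed the threshold over 10 mice (-1.06) and over 8 mice (-1.05). The chemokine genes' median over 10 mice, -0.14, was 0.01 with array weights and ran from -0.22 to -0.05 when 1 mouse was left out.

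Over 10 mice the sign turned under at least 1 alternative other than leaving out 1 mouse for 12 of the 32 members, among those described in full for Cxcl10 (0.46 with array weights, 0.50 over 8 mice), Cx3cl1 (0.0167 and 0.0215) and Xcl1 (0.0431 and 0.0488). Leaving out 1 mouse, Cxcl10 ran from -0.52 to 0.0328 and Ccl12 from -0.0405 to 0.13. Over 8 mice Cxcl12 turned with array weights (0.0168) and ran from -0.10 to 0.0345 when 1 mouse was left out. In the same way Cxcl13 ran from -0.19 to 0.0385, Ccl25 from -0.11 to 0.0139, Ccl28 from -0.26 to 0.0553 and Cx3cl1 from -0.0191 to 0.0755. The cause was not tested. Over all 32 members, 292 of 315 values under the other alternatives kept their sign and side of the threshold over 10 mice and 275 of 283 over 8 mice. Many of these values could not move. The level filter and the eBayes settings leave a difference unchanged, as does the replicate block over 10 mice. The probe set rules change nothing for the 30 members with 1 probe set. These counts are therefore no measure of robustness. When 1 mouse was left out, 304 of 320 values kept their sign and side over 10 mice, with 9 members turning sign, and 229 of 256 over 8 mice, with 15 members turning sign.

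Same-numbered mice deviated together with correlations from -0.123 to 0.158, so the numbers were not taken to pair the mice. With the number as a replicate block, 0 genes were called in either comparison, and over 8 mice Cxcl12 turned to 0.015 and Cxcl13 to 0.0593, and Cxcl9 was at -0.0806.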

Other observations

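Further genes of the pathway differed between mice without a call. Irf7, a transcription factor of the type I interferon response, was at 8.27, 10.31, 7.06, 10.48 and 11.04 in nicotine mice 1 to 5, against 10.16, 10.28, 10.44, 9.82 and 10.56 in water mice 1 to 5. Nicotine mouse 5 was above all water mice, and nicotine mice 1 and 3 were below them. Pf4, the platelet chemokine Cxcl4, was at 7.19, 8.14, 6.57, 7.51 and 7.91 in nicotine mice 1 to 5, against 8.04, 7.85, 7.86, 7.55 and 7.18 in water mice 1 to 5, and the groups overlapped. Cxcr5, the receptor of Cxcl13 on B cells, was at 5.50, 5.36, 5.57, 5.36 and 5.55 in nicotine mice 1 to 5, against 5.53, 5.59, 5.61, 5.72 and 5.55 in water mice 1 to 5, and nicotine mice 1, 2 and 4 were below all water mice.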
